A study of Mus musculus with 22 samples.

Results

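The effect of tumour necrosis factor (TNF) on histone H3 trimethylated at lysine 4 (H3K4me3) was measured by ChIP-seq in cultured synovial fibroblasts of wild-type (WT) mice. All regions that the authors listed for this comparison were taken, which gave 3082 of the 26201 regions in the series and 6 of its 22 samples. The other tables compare fibroblasts of Tg197 mice, a line with a human TNF transgene, with WT fibroblasts at 3, 8 and 11 weeks of age. The treated group held 3 libraries of WT cells from mice of 8 weeks plus TNF, and the control group held 3 libraries of untreated WT cells of the same age. Both groups were CBA x C57BL/6J, wild type and at passage 4 to 5, so all cells had been grown in culture before the measurement. Dose and duration of TNF are not given in the sources used here. It is also not said in the labels whether replicate libraries stem from different mice or cultures, so all tests measure the spread between these libraries, which may be technical.

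Synovial fibroblasts line the joint, produce its lubricating matrix and, under TNF, become a source of cytokines, chemokines and matrix-degrading enzymes. TNF binds its receptors on the cell surface, and the signal passes through adaptor and kinase complexes to the transcription factor NF-kB and to MAP kinases. NF-kB is held in the cytoplasm by inhibitor proteins of the IkB family, and among its own target genes are those inhibitors and the ubiquitin-editing proteins that shut the pathway down again. H3K4me3 marks the nucleosomes around the start sites of active genes, mostly just downstream of the start, and its level at a promoter usually follows the activity of that promoter.

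The promoters of genes with higher H3K4me3 after TNF are shown for 7 genes of the NF-kB pathway and of the inflammatory response, because they carry the letters of an NF-kB (kB) site close to the start. Each run is the 250 bases before the RefSeq start site (GRCm38.p6), 5′ to 3′ on the gene's strand, and capitals mark matches on either strand to the 9-base kB pattern GGGNNTTCC or to its 10-base form with 1 more T, merged where they overlap. In Nfkbia the match GGAAATTCCC lies 29 to 20 bases before the start, and in Tnfaip3 GGAAATCCCC lies 12 to 3 bases before it.
Nfkbia: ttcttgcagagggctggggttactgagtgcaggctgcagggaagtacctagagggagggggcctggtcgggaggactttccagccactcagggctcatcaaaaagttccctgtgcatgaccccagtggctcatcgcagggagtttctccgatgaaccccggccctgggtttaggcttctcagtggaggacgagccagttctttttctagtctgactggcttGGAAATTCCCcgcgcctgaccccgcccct
Tnfaip3: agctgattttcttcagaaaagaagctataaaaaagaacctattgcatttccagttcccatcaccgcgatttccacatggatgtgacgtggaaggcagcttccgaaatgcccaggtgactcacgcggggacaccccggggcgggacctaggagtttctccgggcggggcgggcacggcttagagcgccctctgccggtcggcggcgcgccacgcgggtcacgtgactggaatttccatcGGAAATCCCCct
Tnip1: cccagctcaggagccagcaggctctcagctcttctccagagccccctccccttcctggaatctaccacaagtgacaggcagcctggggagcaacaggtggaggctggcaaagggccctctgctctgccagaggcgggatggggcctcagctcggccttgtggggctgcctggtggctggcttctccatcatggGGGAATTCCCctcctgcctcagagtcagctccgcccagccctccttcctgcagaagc
Nfkbie: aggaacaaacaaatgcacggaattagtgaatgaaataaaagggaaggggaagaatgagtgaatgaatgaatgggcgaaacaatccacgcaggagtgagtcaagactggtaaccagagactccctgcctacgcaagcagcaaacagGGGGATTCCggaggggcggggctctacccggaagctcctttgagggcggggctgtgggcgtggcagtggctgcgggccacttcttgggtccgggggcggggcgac
Nfkb2: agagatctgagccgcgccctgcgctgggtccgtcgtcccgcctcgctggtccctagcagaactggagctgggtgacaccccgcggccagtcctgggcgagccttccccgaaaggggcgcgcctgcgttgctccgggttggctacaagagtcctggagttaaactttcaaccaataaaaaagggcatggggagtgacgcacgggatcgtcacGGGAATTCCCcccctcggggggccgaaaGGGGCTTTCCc
Casp4: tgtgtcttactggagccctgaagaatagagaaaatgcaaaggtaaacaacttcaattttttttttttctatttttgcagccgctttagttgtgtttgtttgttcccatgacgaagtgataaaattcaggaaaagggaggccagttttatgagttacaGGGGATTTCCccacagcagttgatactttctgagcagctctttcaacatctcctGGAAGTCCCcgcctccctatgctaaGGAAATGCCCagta
Gbp5: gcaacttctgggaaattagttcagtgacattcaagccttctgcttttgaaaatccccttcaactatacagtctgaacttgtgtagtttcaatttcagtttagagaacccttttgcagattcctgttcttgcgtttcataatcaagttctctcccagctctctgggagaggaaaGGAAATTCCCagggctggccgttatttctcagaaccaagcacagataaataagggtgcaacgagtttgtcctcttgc
Nfkbia, Tnfaip3 and Tnip1 were taken by name, and the others are 4 of the 5 genes with a match among 26 further named genes that rose and had a sequence. Tnfaip3 and Casp4 have 2 listed starts each and Nfkb2 has 3, and the first start with a match was printed. The 10-base form was found in 1.4% and the 9-base form in 5.4% of the 21263 promoter windows of protein-coding genes in the RefSeq table. These shares are per window, whereas the 5 of 26 counts genes with a match at any start, so they are not comparable. A match describes the letters only and is not evidence of binding. The deposited regions are on another build (mm9) and were measured from the start site of the deposited annotation. Those of Tnip1, Nfkbie, Nfkb2, Casp4 and Gbp5 reach into the 250 bases before that start. The region of Nfkbia runs from 532 to 3432 bp downstream and that of Tnfaip3 from 214 to 3714 bp downstream, so both lie wholly after it. Whether that start is the one whose bases are shown was not checked.

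The libraries differed in ways that the groups do not explain. Every deposited value was a whole multiple of the worth of 1 read, within 0.02 normalized reads, so the reads in listed regions could be summed, and they ran from 321448 (TNF a) to 1312112 (TNF b). The 3 values of a group carry no replicate number, and the letters a, b and c only give their place. WT library c stood apart from the other WT libraries. Pearson correlations were taken over log2(normalized count + 0.5) of the 3082 regions. WT c correlated with TNF a at r = 0.879 and with TNF c at r = 0.869. With WT a it gave r = 0.505 and with WT b r = 0.556, while WT a and WT b gave r = 0.826. These values describe the libraries, since all regions share the same 6 libraries and their depth. In WT a the median normalized count within 250 bp of a start site was 0.95 times that of gene bodies, in WT b it was 1.03 times, in WT c 1.9 times, in TNF a 2.46 times, in TNF c 3.3 times and in TNF b 5.35 times. Counts therefore declined more steeply from start sites to gene bodies in each TNF library than in any WT library, and WT c lay nearest to the TNF libraries. The part of this contrast between libraries in the results below was not tested. Where a gene's call in limma is printed, a change of that call without WT c is given in the same paragraph.

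**Figure D1:**
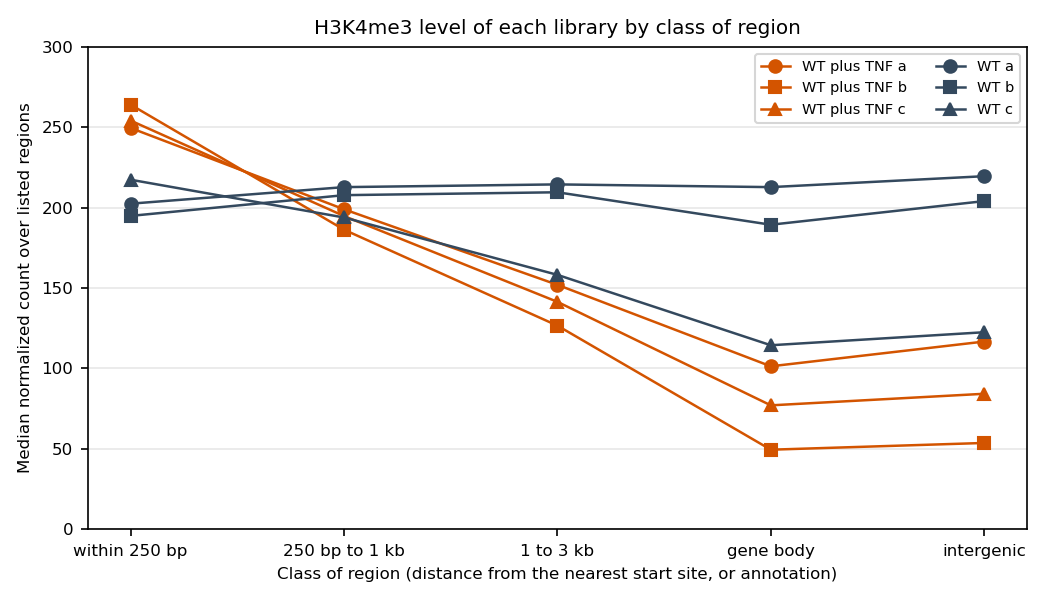
Median normalized count over the listed regions (y axis) of each of the 6 libraries in 5 classes of region (x axis), as distance from the nearest start site or annotation; lines join the classes of 1 library. WT a and WT b are nearly level across the classes, whereas the 3 TNF libraries and WT c decline from the start site to gene bodies, with TNF b lowest at 49.4 in gene bodies.

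By the authors' adjusted p of 0.05, 757 regions (24.6%) had higher and 2228 (72.3%) had lower H3K4me3 after TNF, and 97 passed in neither direction. In pooled cells a change in every cell and a change in the share of cells that carry the mark cannot be told apart. A region was listed only where its best window reached p of 0.0001 or less by the authors' test, so unchanged regions are missing and these shares say nothing of the genome. Regions past the authors' adjusted p are called higher or lower here. The verbs rose and fell stand for a Benjamini-Hochberg adjusted p under 0.05 in limma, fitted to log2(normalized count + 0.5) of all 3082 regions. In that fit 509 regions (16.5%) rose and 1314 (42.6%) fell. The limma log2 change ran from -2.88 to 0.92, with a median of 0.47 over the higher and -0.95 over the lower regions. All 3 TNF libraries lay above all 3 WT libraries in 643 of the higher regions (84.9%), and below them in 1584 of the lower ones (71.1%). Over all listed regions, whether or not they passed the authors' threshold, these counts were 690 (22.4%) and 1597 (51.8%).

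Limma's calls lay at the edge of its threshold. The smallest adjusted p was 0.046, and it holds for every gene below that rose or fell unless another value is given. Without any 1 of TNF b, TNF c, WT a or WT b limma called 0 regions at an adjusted p of 0.05 (1125 to 1234 regions at an unadjusted p under 0.05), without TNF a 343 rose and 1414 fell, and without WT c 661 rose and 2109 fell.

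**Figure D2:**
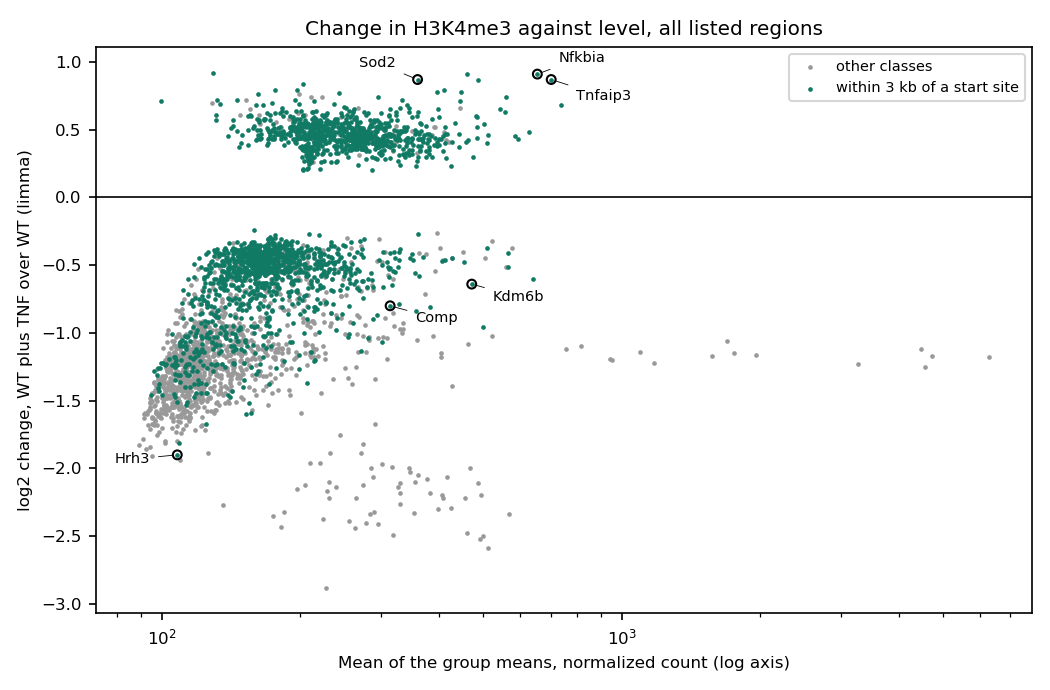
Limma log2 change, TNF over WT (y axis), against the mean of both group means on a log axis (x axis) for all 3082 listed regions, in green within 3 kb of a start site and in grey elsewhere, with 6 genes circled. The higher regions are almost all promoters, and the lower regions reach further from 0 and include most of the regions outside promoters.

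Regions with higher H3K4me3 lay almost all near start sites, and regions with lower H3K4me3 lay both near and far from them. A promoter here is a region centred within 3 kb of a start site in the deposited annotation, and 93.9% of the higher but 46.9% of the lower regions were promoters. At an authors' adjusted p of 0.001 the share of lower regions that were promoters was 59.6%. Within 250 bp of a start site 182 regions were higher and 59 lower. Gene bodies gave 23 higher and 740 lower regions, and intergenic regions 20 higher and 427 lower. The median log2 change was 0.44 within 250 bp, -0.36 from there to 1 kb, -0.53 from 1 to 3 kb, -1.21 in gene bodies and -1.18 in intergenic regions. In gene bodies and intergenic regions the medians kept their sign when libraries were scaled to equal medians over these regions, called median scaling below (-0.70 and -0.68), as did the median within 250 bp (0.94), while that of the 250 bp to 1 kb class turned to 0.14 and that of the 1 to 3 kb class came to -0.03.

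Around the start site the pattern was not symmetric. Distances are those of a region's centre, and the listed regions were 1000 to 3500 bp long. A region can therefore reach across the start or into a neighbouring bin. That of Nfkb2, centred at -356.5 bp, ran from -1606 to 894 bp. The counts below sort whole regions and do not map the mark base by base. From 250 bp to 1 kb downstream 325 regions were higher and 163 lower, so that 66.6% of those past the threshold were higher, but over the same distance upstream 34 were higher and 271 lower (11.1%). From 1 to 3 kb downstream 161 were higher and 399 lower (28.8%), and from 1 to 3 kb upstream 9 were higher and 152 lower (5.6%). The share of higher regions was largest among those centred in the first 250 bases after the start, where 101 were higher and 20 lower. No test was run on these counts, because regions of the same libraries are not replicates.

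**Figure D3:**
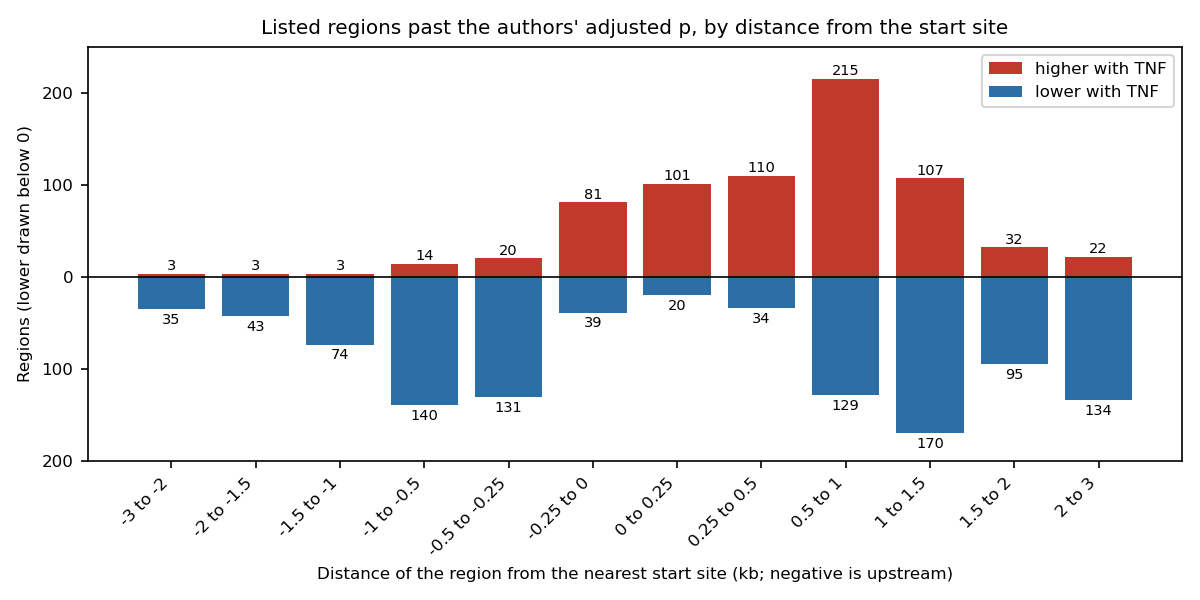
Number of regions past the authors' adjusted p (y axis, lower regions drawn below 0) by the distance of the region's centre from its nearest start site in kb (x axis, upstream negative). Higher regions outnumber lower ones from 0.25 kb upstream to 1 kb downstream, with 215 against 129 between 0.5 and 1 kb downstream, and lower regions outnumber higher ones further out on both sides.

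The same arrangement was seen within single genes. The 3082 regions named 2240 genes. Of the 1727 genes with a listed promoter region, 680 (39.4%) had only higher regions, 958 (55.5%) only lower ones and 26 (1.51%) had both. In 19 of these 26 the higher region was the nearer to the start site. In Tubb5, a beta tubulin gene, the region centred at 144.5 bp had a log2 change of 0.46 and that at -905.5 bp, upstream of the start, one of -0.41. In Vasp, which encodes an actin-regulating protein, the changes were 0.33 at -298.5 bp and -0.79 at -1198.5 bp. Ier3 and Ier5, immediate-early genes, were among the 7 with the other order: Ier3 rose by 0.49 at 1343.5 bp and fell by 0.51 at -556.5 bp, a fall that was -0.00 with median scaling. The lower region of Ier5, with a log2 change of -0.42, came to 0.09 with median scaling. The lower change of Tubb5, -0.41, is as small and so also depends on the scaling.

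In each library the reads of the listed regions were also summed by class. Promoters held 65.39%, 78.44% and 70.55% of these reads in TNF a, b and c, and 54.05%, 53.86% and 61.72% in WT a, b and c. The groups did not overlap, and the means were 71.5% ± 6.6 with TNF and 56.5% ± 4.5 without (SD, n = 3), a difference of 14.9 percentage points. The two-sided exact permutation p was 0.1, the smallest that 3 against 3 libraries allow. The regions were listed because they differ between these same libraries. Promoters made up 711 of the 757 higher but 1044 of the 2228 lower regions. A larger promoter share with TNF follows from these calls, so the p is not separate evidence of it.

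Feedback inhibitors of NF-kB with a listed promoter region were all higher after TNF. Nfkbia, which encodes the inhibitor IkB-alpha, had normalized counts of 741.64, 902.95 and 924.97 with TNF and 466.76, 443.2 and 450.24 without, in a region on chromosome 12 (chr12:56590201-56593100, mm9). The TNF libraries lay far above the WT libraries, whose values differed little. The mean was 1.89 times as high with TNF, and the limma log2 change was 0.91 (SE 0.14), or 0.85 to 1.01 on leaving out 1 library at a time. Tnfaip3, the gene of the ubiquitin-editing enzyme A20, had counts of 772.39, 1047.14 and 905.71 with TNF and 518.24, 525.95 and 442.94 without (chr10:18731501-18735000, mm9). Its mean was 1.83 times as high, again with no overlap, and its log2 change was 0.87 (SE 0.16). Tnip1 encodes an A20-binding protein, and its counts were 566.18, 557.17 and 554.65 with TNF and 392.97, 371.48 and 234.45 without (chr11:54774201-54777000, mm9). WT c was by far its lowest library, and the log2 change of 0.78 became 0.55 without it. Nfkbie, the gene of IkB-epsilon, had counts of 604.17, 751.13 and 673.51 with TNF and 502.8, 430.33 and 379.66 without, a fold of 1.55. Cyld, a deubiquitinase of the same pathway, had 332 ± 38.4 with TNF and 242 ± 4.9 without (mean ± SD, n = 3). Of the 16 feedback inhibitors of NF-kB that were looked up, these 5 had a listed promoter region, and all 5 were higher and rose, against 26.1% of all listed promoter regions that rose. Their median log2 change was 0.78, beside -0.41 over all 1827 listed promoter regions. This was the highest median of the gene lists that had a listed promoter region, but without WT c it was 0.55, below antigen presentation (0.61), adhesion (0.57) and redox and metabolism genes (0.56). The gain was not seen over the whole of each gene, since 2 gene-body regions of Nfkbie were lower with TNF, at 0.44 and 0.76 times the untreated mean. The log2 change of the second, -0.38, was 0.12 with median scaling. This second region did not pass in limma (adjusted p = 0.119), but did at -0.54 without WT c (adjusted p = 0.0188).

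Signalling genes upstream of NF-kB and its subunits were changed in both directions. Of 30 members, 7 had a listed promoter region, of which 5 were higher and 2 lower, and their median log2 change was 0.45, or 0.50 without WT c. Among all genes with a listed promoter region 39.4% had only higher and 55.5% only lower ones. Ripk2, a kinase that activates the IKK complex, had counts of 555.33, 749.67 and 685.06 with TNF and 417, 450.56 and 395.08 without, with a log2 change of 0.65 (SE 0.15). Birc3, the gene of the ubiquitin ligase cIAP2, had 468.5, 475.45 and 510.08 with TNF and 360.37, 305.27 and 269.33 without, and also changed by 0.65 (SE 0.14). In both genes all TNF libraries lay above all WT libraries. Nfkb2, which encodes the p100 precursor of a NF-kB subunit, had 672.91, 771.47 and 753.29 with TNF and 550.85, 487.34 and 531.37 without, a fold of 1.40. Map3k8, a kinase that links TNF to ERK, rose by 0.45 on the log2 scale. Tank, an adaptor of the same pathway, was higher by the authors' p and did not pass in limma (0.45, adjusted p = 0.0767), but without WT c its log2 change was 0.70 and passed (adjusted p = 0.014). Rela, the gene of the p65 subunit, had a region centred at -388.5 bp with 160.99, 154.37 and 140.31 with TNF and 245.39, 194.93 and 201.19 without. It fell by 0.49 in limma (adjusted p = 0.0463), but its log2 change was 0.02 with median scaling. Sharpin, a subunit of a ubiquitin ligase at the TNF receptor, had a log2 change of -0.44 that did not pass in limma (adjusted p = 0.0697). It passed without WT c (-0.59, adjusted p = 0.0149) and was 0.06 with median scaling.

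Chemokine and cytokine genes were nearly absent from the list. Of 36 members only Csf1 and Il1r1 had a listed promoter region, and both fell, against 26.6% of all listed promoter regions that fell. Ccl2 and Cxcl1, chemokines that attract monocytes and neutrophils, had no listed region, which leaves them without a value. Il1r1, the interleukin-1 receptor gene, had 108.53, 48.31 and 111.15 with TNF and 199.06, 207.81 and 180.91 without, a fold of 0.46. Csf1, which encodes a growth factor of macrophages, had 180.89, 139.84 and 181.03 with TNF and 284.86, 250.1 and 264.47 without, a fold of 0.63, in a region centred at -264.5 bp. In both genes WT c was close to the other WT libraries, and the log2 changes without WT c were -1.28 and -0.68. With median scaling the log2 changes of Il1r1 and Csf1 were -0.72 and -0.17.

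Genes of the interferon response moved in both directions. Of 40 members 8 had a listed promoter region, of which 5 were higher and 3 lower, and their median log2 change was 0.52. Among all genes with a listed promoter region 39.4% had only higher and 55.5% only lower ones. Jak2, a kinase of cytokine receptors, had 557.14, 685.38 and 643.24 with TNF and 272.85, 389.87 and 373.98 without, with a log2 change of 0.87 (SE 0.17). Gbp5, which encodes a guanylate-binding protein, had 273.14, 334.16 and 283.38 with TNF and 214.5, 193.1 and 171.17 without. Parp14 and Dtx3l, an ADP-ribosyltransferase and a ubiquitin ligase of this response, rose by 0.60 and 0.48, and Irf1, a transcription factor, by 0.55, which no longer passed without WT c (adjusted p = 0.0507 in limma). Lower regions lay at Socs3, an inhibitor of cytokine signalling, whose upstream region fell to 0.49 times the untreated mean (adjusted p = 0.0463 in limma), at Trim25 and at Irf7. The last pair did not pass in limma, with log2 changes of -0.91 and -0.58 (adjusted p = 0.0587 and 0.0621), but passed without WT c at -1.28 and -0.80 (adjusted p = 0.014 and 0.0141). With median scaling the log2 changes of Socs3, Trim25 and Irf7 were -0.50, -0.40 and -0.08. Ifi204, an interferon-inducible gene of a family with near-identical members, had the largest positive log2 change of all regions, 0.92 (SE 0.34, adjusted p = 0.0482 in limma, 0.0549 without WT c). Its counts were 164.61, 174.34 and 157.92 with TNF and 68.64, 141.6 and 68.14 without, so the WT libraries were spread widely and reads of its relatives could be counted in it.

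Antigen presentation and adhesion genes with a listed promoter were all higher. For antigen presentation these were 2 of 22 members: Erap1, a peptidase that trims antigenic peptides, and H2-K1, a class I histocompatibility gene, which rose by 0.62 (adjusted p = 0.0462 in limma) and 0.46 (adjusted p = 0.0484). Sequences of class I genes are similar to each other, so the value of H2-K1 may hold reads of its relatives. Without WT c, H2-K1 no longer passed in limma (adjusted p = 0.0772). Of 24 adhesion genes 4 had a listed promoter region, all higher, and 3 rose. Over all genes with a listed promoter region 39.4% had only higher ones, and 26.1% of all listed promoter regions rose. The adhesion list also held lower gene-body regions, of the integrin subunit genes Itga3, which fell to 0.42 times the untreated mean, and Itgb5, at 0.54 times (adjusted p = 0.0888 in limma). Without WT c Itgb5 passed in limma, with a log2 change of -1.18 (adjusted p = 0.0148). Icam1, the adhesion molecule that binds leukocyte integrins, had 282.19, 327.26 and 329.05 with TNF and 233.38, 211.49 and 171.98 without, a fold of 1.52 with no overlap. Itgav, an integrin subunit, had 327.41, 406.8 and 393.43 with TNF and 229.95, 244.59 and 269.33 without, also 1.52 times. Cd47, a surface signal against phagocytosis, rose by 0.46 (adjusted p = 0.049 in limma). Sdc4, a heparan sulfate proteoglycan, was higher by the authors' p, but WT c (398.32) was as high as the TNF libraries (374.44 to 419.51), and limma's adjusted p was 0.0548. Without WT c its log2 change went from 0.52 to 0.79 and passed (adjusted p = 0.014 in limma). Vcam1 had no listed region.

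Genes of oxidative defence and of lipid and energy metabolism were higher at every listed promoter. Of 35 members 8 had a listed promoter region, all 8 were higher and 6 rose, with a median log2 change of 0.50, beside 39.4% of all genes with a listed promoter region that had only higher ones and 26.1% of promoter regions that rose. In the gene body of Txnrd1, a thioredoxin reductase gene of the same list, a region was lower, at 0.76 times the untreated mean (adjusted p = 0.0618 in limma). Its log2 change of -0.40 was 0.11 with median scaling. Without WT c it was -0.49 and passed in limma (adjusted p = 0.0197). Sod2, the mitochondrial superoxide dismutase gene, had 439.56, 499.06 and 456.71 with TNF and 259.12, 237.23 and 266.09 without. The 2 groups were tight and far apart, with a log2 change of 0.87 (SE 0.12). Ch25h, which encodes cholesterol 25-hydroxylase, had 533.62, 654.87 and 604.17 with TNF and 375.81, 347.57 and 243.37 without, and its log2 change of 0.91 became 0.72 without WT c. Slc39a14, a zinc and iron transporter gene, rose by 0.55 (SE 0.14) and Ldha, a lactate dehydrogenase gene, by 0.51 (SE 0.14). Insig1, a sensor of sterols, rose by 0.32 (adjusted p = 0.0461 in limma) and Sod3, the extracellular superoxide dismutase, by 0.50 (adjusted p = 0.0495). Slc16a3, a lactate exporter, was higher by the authors' p only, with a log2 change of 0.43 (adjusted p = 0.0602 in limma).

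**Figure D4:**
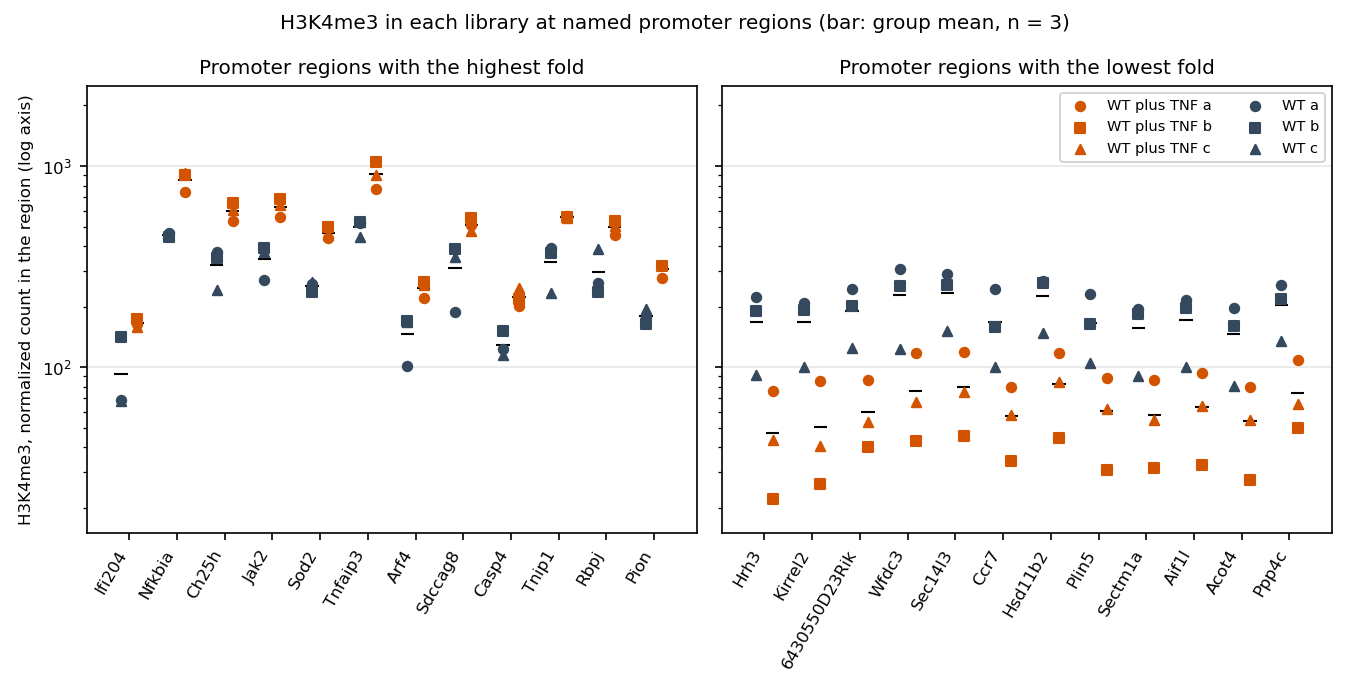
Normalized count (y axis, log scale) of each library at the 12 promoter regions with the largest positive (left) and the largest negative (right) limma log2 change among those whose groups do not overlap; orange marks stand for TNF, dark marks for WT, and bars for group means. On the left the TNF libraries lie close together, from 741.64 to 924.97 at Nfkbia, and on the right WT c is the lowest WT library and TNF b the lowest TNF library at every gene.

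Other genes were among the 12 highest promoters with no overlap between the groups without belonging to a pathway above. Casp4, which encodes an inflammatory caspase, had 202.6, 219.02 and 247.06 with TNF and 123.55, 150.8 and 114.39 without, a fold of 1.72. Rbpj, the DNA-binding partner of Notch, had 455.84, 534.29 and 505.13 with TNF and 262.55, 237.23 and 387.78 without. WT c was its highest WT library, and the log2 change of 0.78 became 0.99 without it. Arf4, a small GTPase of vesicle transport, and Sdccag8, a centrosome protein gene, rose by 0.79 each, with SE of 0.23 and 0.25. In both WT a was the lowest library (101.25 and 188.76), and the change became 0.55 and 0.46 on leaving out WT a. Pion had 278.57, 317.81 and 321.9 with TNF and 178.47, 163.67 and 195.51 without.

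Matrix genes and genes of bone formation with a listed promoter were lower. Of 44 matrix members 5 had a listed promoter region, all 5 were lower and 3 fell, with a median log2 change of -0.76 (-0.26 with median scaling). Over all genes with a listed promoter region 55.5% had only lower ones, and 26.6% of promoter regions fell. Without WT c all 5 fell, in a fit where 2109 of all 3082 listed regions fell. Fmod, which encodes the collagen-binding proteoglycan fibromodulin, had 179.08, 106.78 and 168.38 with TNF and 247.11, 242.75 and 263.66 without, in a region centred at -90.5 bp (chr1:135933401-135934600, mm9). WT c was its highest library, and the log2 change was -0.76 (SE 0.21) with WT c and -0.73 without. Col12a1, a fibril-associated collagen gene, had 141.09, 113.32 and 144.17 with TNF and 279.71, 257.46 and 193.89 without, a fold of 0.55. Thbs1, the thrombospondin gene, fell by 0.55 (adjusted p = 0.0499 in limma), and Loxl1 and Plod2, collagen cross-linking enzymes, had folds of 0.42 and 0.65 that did not pass in limma (adjusted p = 0.0501 and 0.0573). With median scaling the log2 changes of Thbs1, Loxl1 and Plod2 were -0.05, -0.72 and -0.09. In gene bodies and other classes 9 matrix members had lower regions and 0 had higher ones. This is near the background, since over all genes 740 gene-body regions were lower and 23 higher. Regions of Col1a1, a chain of type I collagen, had 0.46 and 0.45 times the untreated mean, and 4 regions along Col5a1 had 0.31 to 0.42 times.

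Of 50 members of bone, Wnt and BMP signalling 5 had a listed promoter region, and all 5 were lower, beside 55.5% of all genes with a listed promoter region. The median log2 change over their regions was -0.64 (-0.14 with median scaling). Sp7, the osteoblast transcription factor osterix, had 218.88, 118.77 and 196.44 with TNF and 344.92, 303.44 and 295.29 without (chr15:102195501-102197300, mm9). Its log2 change was -0.86 (SE 0.22), and -0.60 to -1.04 on leaving out 1 library at a time. Id3, an inhibitor of helix-loop-helix factors and a BMP target, had 249.63, 191.05 and 304.29 with TNF and 372.38, 399.06 and 382.1 without, a fold of 0.65. Id1, its relative, had 144.71, 102.79 and 234.96 with TNF and 259.12, 231.71 and 262.03 without, so that TNF c overlapped the WT libraries, and fell by 0.72 (adjusted p = 0.0492 in limma, 0.0771 without WT c). The Wnt receptor genes Fzd2 and Fzd1 were lower by the authors' p only, with log2 changes of -0.63 and -0.40 (adjusted p = 0.0507 and 0.0521 in limma). Both passed without WT c (adjusted p = 0.0144 and 0.02), and Fzd1 was 0.10 with median scaling. Comp, a cartilage matrix protein gene, had 253.24, 175.43 and 264.12 with TNF and 415.28, 406.42 and 365.87 without, a fold of 0.58 with no overlap. Sox9, the cartilage transcription factor, had 209.83, 193.59 and 225.6 with TNF and 320.9, 303.44 and 283.13 without, a fold of 0.69. Its log2 change of -0.53 was -0.02 with median scaling.

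Matrix proteases and their inhibitors split evenly, with 2 higher and 2 lower among 4 listed of 32, and all 4 passed in limma. Among all genes with a listed promoter region 39.4% had only higher and 55.5% only lower ones. Adamts5 and Adamts1, aggrecan-cleaving proteases, rose by 0.41 and 0.43 (adjusted p = 0.0461 for Adamts1, 0.0555 without WT c). Adamts5 had 468.5, 491.79 and 500.73 with TNF and 350.07, 386.19 and 360.19 without. Mmp11, a stromal protease gene, fell by 0.53, which was -0.02 with median scaling, and Timp3, a protease inhibitor gene, fell by 0.43 (adjusted p = 0.0495), which was 0.08 with median scaling.

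The lists of MAP kinase and immediate-early genes, growth factors, cytoskeleton, Hox genes and cell cycle had members on both sides. For comparison, 39.4% of all genes with a listed promoter region had only higher and 55.5% only lower ones. In limma 26.1% of all listed promoter regions rose and 26.6% fell. Gadd45a, a stress-response gene, rose by 0.63 (SE 0.13), while Fosl1, an AP-1 subunit gene, fell by 1.03 (SE 0.30) in a region upstream of its start. Dusp6, a phosphatase gene that restrains ERK, and Jund, an AP-1 subunit gene, rose in limma by 0.34 (adjusted p = 0.0495) and 0.42 without passing the authors' threshold. Of 41 growth factor and Hippo genes 3 were higher and 4 lower, and their median of -0.38 was 0.12 with median scaling: Tgfbr2, a TGF-beta receptor gene, rose by 0.50 (adjusted p = 0.0461 in limma) and Yap1, the Hippo pathway co-activator, by 0.43 (adjusted p = 0.0482), while Cyr61, a YAP target, fell by 0.53, and Tgfb2 by 0.52 (adjusted p = 0.0481). The values of Cyr61 and Tgfb2 were -0.02 and -0.01 with median scaling. Of 38 cytoskeletal genes 2 rose and 4 fell in limma. Flnc, a filamin gene, fell by 0.80 and Myl9, a myosin light chain of contractile cells, by 0.88. Flnc had 106.72, 115.87 and 139.76 with TNF and 253.97, 182.06 and 197.13 without. Of 55 Hox and limb genes 6 were lower and Msx1 was higher. Their median of -0.44 was 0.07 with median scaling. Hoxa7 and Sox9 fell, by 0.66 and 0.53, and Hoxa9, at a log2 change of -0.51, did not pass in limma (adjusted p = 0.0569), but did at -0.76 without WT c (adjusted p = 0.014), and was -0.00 with median scaling. Among 43 cell cycle and apoptosis genes Fas, the death receptor, had 457.65, 580.05 and 719.73 with TNF and 360.37, 380.67 and 412.11 without, a fold of 1.52, and Trp53 rose by 0.40 (adjusted p = 0.0492 in limma, 0.0662 without WT c). Cdkn1a, the p21 gene and a target of Trp53, fell by 0.51, which was -0.01 with median scaling.

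Of 24 enzymes and subunits that write or erase H3K4 methylation, or were listed with them, 5 had a listed promoter region. Kdm6b, which encodes a demethylase of another lysine, had 354.54, 325.44 and 428.09 with TNF and 583.45, 584.8 and 553.27 without, and fell by 0.64 (SE 0.14). With median scaling its log2 change was -0.14. Setd1a, a catalytic subunit of an H3K4 methyltransferase, fell by 0.45 (adjusted p = 0.0492 in limma), which was 0.05 with median scaling. Dpy30 and Rbbp5, shared subunits of these enzymes, were higher by the authors' p only, with log2 changes of 0.35 and 0.45 (adjusted p = 0.0582 and 0.0523 in limma), and Rbbp5 passed without WT c (adjusted p = 0.0376).

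**Figure D5:**
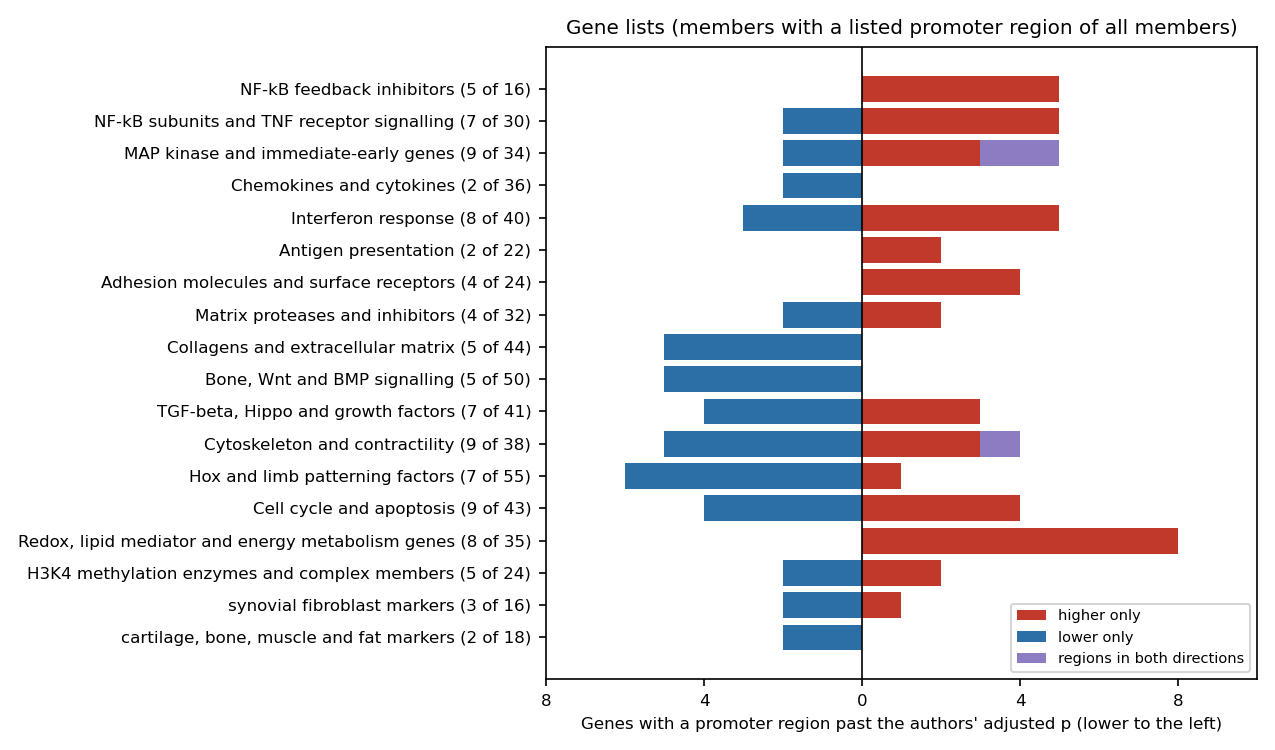
Number of genes (x axis) with promoter regions past the authors' adjusted p in each gene list (y axis, with members that have a listed promoter region out of all members); higher genes are drawn to the right, lower genes to the left, and genes with both to the right in purple. NF-kB inhibitors (5), redox and metabolism genes (8) and adhesion genes (4) lie on the higher side, and matrix (5) and bone genes (5) on the lower side. Over all genes with a listed promoter region 39.4% had only higher and 55.5% only lower ones. With median scaling the median log2 changes of the matrix and bone lists were -0.26 and -0.14.

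The 12 promoters with the largest negative change and no overlap between the groups carried low counts and followed 1 order of libraries. Hrh3, a histamine receptor gene, had 75.97, 22.16 and 43.47 with TNF and 223.09, 191.26 and 91.67 without, a fold of 0.28 and a log2 change of -1.90 (SE 0.63). Kirrel2, an immunoglobulin superfamily gene, had 85.02, 26.15 and 40.72 with TNF and 207.64, 193.1 and 100.59 without, a fold of 0.30. Ccr7, a chemokine receptor of lymphocytes and dendritic cells, had 79.59, 34.14 and 57.78 with TNF and 245.39, 158.15 and 99.78 without, a fold of 0.34. At each of these genes, as at Hsd11b2, Plin5, Wfdc3, Sec14l3, Sectm1a, Aif1l, Acot4, Ppp4c and the Riken gene 6430550D23Rik, TNF b was the lowest TNF library and WT c the lowest WT library. Acot4 did not pass in limma (adjusted p = 0.0537), but did without WT c (adjusted p = 0.0237). Over all 2228 lower regions TNF b was the lowest TNF library in 86.9% and WT c the lowest WT library in 89.3%, and over lower gene-body regions in 94.3% and 96.6%. Over lower regions within 250 bp of a start site these shares were 78.0% and 66.1%. Over the 757 higher regions WT c was the lowest WT library in 17.4% and the highest in 49.8%. Of the 1044 lower promoter regions 154 had no overlap and a WT c at least as high as WT a or WT b, among them Fmod, Csf1, Id3, Flnc and Igfbp4, a choice made after these values were seen. Igfbp4, which binds insulin-like growth factors, had 271.33, 266.6 and 296.58 with TNF and 533.69, 445.04 and 484.31 without, a fold of 0.57 and a log2 change of -0.81.

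Outside promoters the few higher regions were smaller in change than the many lower ones with the deposited scaling. With median scaling Trps1, Rgs3, Snx18 and Casz1 had log2 changes of 1.24, 1.17, 1.11 and 1.09. The median over all listed gene-body regions was then -0.70. Arfgef2, Mical2, Pkp1 and Dlat had -1.41, -1.39, -1.36 and -1.33. The order of sizes therefore depends on the scaling, and the values below are without median scaling. Trps1, a gene of a zinc-finger repressor of cartilage and hair development, had a region centred at 3285.5 bp with 249.63, 281.85 and 245.96 with TNF and 104.68, 233.55 and 152.51 without. It rose by 0.74 (adjusted p = 0.047 in limma, 0.0599 without WT c), and the WT libraries were spread widely. Rgs3, a regulator of G-protein signalling, had 390.72, 729.33 and 529.34 with TNF and 370.66, 340.22 and 303.41 without, with TNF a only just above WT a, and it no longer passed without WT c (adjusted p = 0.0588 in limma). Snx18 and Casz1 rose by 0.61 and 0.58. Inhba, which encodes a subunit of activin, had a region centred at 4993.5 bp with 461.27, 505.23 and 457.26 with TNF and 334.63, 365.96 and 363.44 without, and rose by 0.42 (SE 0.12). Among lower gene-body regions with no overlap between the groups, those in Arfgef2, Mical2, Pkp1 and Dlat changed most, with folds of 0.28, 0.30, 0.29 and 0.29. Their TNF b counts were 21.43, 27.6, 24.7 and 21.07 and their WT c counts 77.88, 131.42, 87.61 and 81.12. A higher intergenic region on chromosome 11 (chr11:43197401-43199000, mm9) had 271.33, 221.2 and 256.97 with TNF and 151.01, 143.44 and 146.84 without, a fold of 1.70 with tight WT libraries. Chromosome 11 held 416 of the lower (18.7%) and 37 of the higher regions (4.9%). These shares were not set against the gene content of the chromosome and were not tested.

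Markers of the labelled cell type were checked as far as a list of changed regions allows. Of 16 fibroblast markers 3 had a listed promoter region: Pdpn, a marker of synovial lining cells, rose by 0.58, Ugdh, an enzyme of hyaluronan synthesis, fell by 0.63, and Pdgfrb was lower by the authors' p only at both of its regions. Their log2 changes were -0.28 and -0.36 (adjusted p = 0.233 and 0.13 in limma), and the second passed without WT c (adjusted p = 0.0188). Pdpn had 405.19, 573.15 and 418.19 with TNF and 338.06, 297.92 and 287.18 without. The log2 change of Ugdh was -0.12 with median scaling. Of 24 leukocyte and macrophage markers and 11 epithelial and nerve sheath markers 0 had a listed region of any class. Of 15 endothelial and mural markers 0 had a listed promoter region, and Pecam1 and Eng had lower gene-body regions with folds of 0.36 and 0.38. An unlisted marker has no value here, so its level cannot be given.

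Where a listed region overlapped 1 listed for Tg197 fibroblasts against WT fibroblasts of the same age, by at least 1 bp, both values were set side by side. Regions listed as higher in both tables covered 131 of the 757 higher TNF regions (17.3%) at 3 weeks, which met 134 of the 1321 higher Tg197 regions (10.1%), and 74 (9.8%) at 11 weeks, which met 75 of 1965 (3.8%). TNF regions that were higher and met a lower Tg197 region numbered 9 at 3 weeks and 8 at 11 weeks, and those that were lower and met a higher Tg197 region 48 and 51. Among lower regions 315 of 2228 (14.1%) met 318 of 12173 lower Tg197 regions (2.6%) at 3 weeks and 105 (4.7%) met 106 of 4417 (2.4%) at 11 weeks. Background shares in the Tg197 tables were 9.71% higher and 89.5% lower at 3 weeks and 29.8% and 67.0% at 11 weeks. Nfkbia, 1.89 times as high with TNF, was 1.72 times as high in Tg197 at 3 weeks and 1.89 times at 11 weeks. Tnfaip3, at 1.83 with TNF, had 1.93 and 1.66, Tnip1, at 1.68, had 1.60 and 1.98, and Icam1, at 1.52, had 1.46 and 1.66. Sp7, at 0.57 with TNF, had 0.66 and 0.64, and Id3, at 0.65, had 0.69 and 0.67. Directions differed for Sdc4, 1.39 with TNF but 0.62 in Tg197 at 3 weeks (1.31 at 11 weeks), for Cdkn1a, 0.70 with TNF but 1.28 at 11 weeks, and for Casz1, 1.51 with TNF but 0.68 at 3 weeks. The Sdc4 regions overlap only in small part (164268001-164269000 with TNF, 164268801-164269900 at 3 weeks, 164267101-164268100 at 11 weeks). Those of Casz1 also overlap only in part (148274901-148276000 with TNF, 148275601-148276600 at 3 weeks). In both genes different stretches are therefore compared. They also differed for Pdgfrb, 0.77 with TNF but 1.31 and 1.17 at 3 and 11 weeks, and for Setd1a, 0.73 with TNF but 1.15 at 11 weeks. The Tg197 comparison at 8 weeks uses the same 3 untreated WT libraries, so its values are not separate evidence: Nfkbia had 1.76, Tnfaip3 1.60 and Sp7 0.50 there, and Timp3, 0.74 with TNF, had 1.29. With median scaling the log2 changes with TNF were -0.01 for Cdkn1a, 0.05 for Setd1a, 0.15 for Pdgfrb and 0.08 for Timp3. The difference in direction of these 4 genes therefore depends on the scaling. The tables list different regions and were scaled separately, so no test was made between them.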

How the data were processed

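H3K4me3 ChIP-seq tables of mouse synovial fibroblasts were used, with groups from the labels. Per the submitters' processing notes the build is mm9, and BWA, TopHat, TopHat2, Cufflinks and Cuffdiff are named without versions or roles. The region caller and the normalization are not given in the sources used here. Each row holds, per the file headers, 3 normalized counts per group in 1 cell, made by the authors, the deposited group averages (signal), an enrichment ratio, fold columns on the log2 scale, and the authors' p-value and adjusted p-value for the region and its best window. The authors' enrichment ratio was used only in the closing section, and their log2 fold only for direction. Control was read as untreated WT because the labels tie that group to both 8 week tables, whose control reads were equal in 162 of 162 values of 54 regions with the same coordinates.

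Reads were recovered per library as whole multiples of 1 step, and 100.0% of values were whole within 0.02. Limma 3.58.1 (R 4.3.3) was fitted with a variance trend to log2(normalized count + 0.5), so log2 changes are on that scale, with no filter on low values and Benjamini-Hochberg adjustment over 3082 regions. The script was tested on simulated data. Regions had been listed on the same libraries, so limma's p is not independent of the listing. Promoter regions of 21 gene lists (16 of processes, 5 of markers) were counted without a set test. Named regions were the 12 promoter regions and 4 gene-body and 4 intergenic regions with the largest limma change in each direction (past the authors' threshold, no overlap, mean of at least 50 in the higher group), up to 4 members per list, and 8 genes taken by name; others named were chosen to complete a list or after their values were seen. The comparison, lists and tests were chosen with earlier results of these data known. Alternatives covered thresholds, pseudocounts, scaling, filters, voom on recovered reads and each library left out. The values are normalized, so of the methods for counts voom alone was run, on the recovered reads. Promoter windows came from RefSeq (GRCm38.p6). Only 528 of the 680 genes with higher and 760 of the 958 with lower promoter regions had a window, under 80%, so a check of base composition was void and is not reported. The values of some list members are not reported here.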

Additional observations from a re-analysis of the deposited data

How the results depend on the processing

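The values rest on a list selected for differences, at depths of 321448 to 1312112 reads in listed regions, and no unchanged region was there to check the scaling. Without a variance trend 0 regions rose and 0 fell in limma (smallest adjusted p 0.0534, 2175 regions at an unadjusted p under 0.05). With libraries scaled to equal medians 772 rose and 258 fell (75.0% of calls up, against 27.9%), and the median change of all regions moved from -0.58 to -0.07; scaled to regions within 1 kb of a start site, 221 rose and 1946 fell (10.2% up, median -0.68). Median scaling raises all changes by its construction, as lower regions prevail in the list. Values with median scaling are printed for some genes only, so a gene without one is not shown to be stable to it. Voom gave 410 and 1574 (20.7% up). Leaving out 1 library gave 0 to 661 that rose and 0 to 2109 that fell. At an authors' adjusted p of 0.001, 334 regions were higher and 990 lower. Of higher regions 71.5% lay within 1 kb and 24.0% within 250 bp of a start site, and of lower regions 22.1% and 2.6%. The share of lower regions within 3 kb was 59.6% at the adjusted p of 0.001, 37.0% for limma calls and 15.5% for limma calls with median scaling. List members higher at a promoter numbered 50, and 33 at 0.001; lower members numbered 45, 74 with any class of region and 26 by limma.

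With median scaling the log2 changes of Rela (0.02), Timp3 (0.08), Ccnb1 (0.06), Setd1a (0.05) and Pdgfrb (0.15) changed sign, and no other of 97 regions named by rule did so under any alternative run. Outside these, regions that changed sign with median scaling included Sharpin (0.06), Fzd1 (0.10), Ier5 (0.09) and the other region of Pdgfrb (0.23). Gene-body regions of Nfkbie (0.12) and Txnrd1 (0.11) did so too, and the list is not complete. Of the 97 regions 83 passed in limma, and none passed on leaving out any 1 of TNF b, TNF c, WT a or WT b. Without WT c 7 no longer passed, which were Ifi204, Trps1, Rgs3, H2-K1, Adamts1, Id1 and Actb (adjusted p = 0.0549 to 0.0772), and 12 others came to pass; outside the 97, Irf1 and Trp53 no longer passed. Without WT c the lists of NF-kB inhibitors (5 rose), matrix (5 fell) and bone genes (4 fell) kept their direction. In that fit 661 of all 3082 regions rose and 2109 fell, so most listed regions fell in it. No paired analysis was possible because the values of a group are not numbered by replicate. The cause of these shifts was not tested.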

Other observations

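Among the lower regions were 3 on mitochondrial DNA, which is packed without histones. Their untreated means were 6333 ± 602, 8454 ± 950 and 6196 ± 885 normalized counts (SD, n = 3), and with TNF they were 0.49, 0.49 and 0.47 times as high. None of the 3 passed in limma, with log2 changes of -1.17, -1.18 and -1.25 (adjusted p = 0.359, 0.54 and 0.304), close to the median of -1.21 over gene-body regions. TNF b was the lowest library in each, at 1451.4, 1832.05 and 1261.44.

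A further 47 regions stood apart by a log2 change below -1.9 at a mean count above 200, limits chosen after the values were seen. All 47 were lower by the authors' p, 0 were promoters and 40 had no gene, and 24 fell in limma. Only 1 had groups that did not overlap, because TNF a was above WT c in 46 of them. Their median counts were 302.1, 35.2 and 60.5 in TNF a, b and c and 573.2, 816.5 and 122.5 in WT a, b and c.

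The authors' enrichment ratio, whose denominator the headers do not name, had a median of 8.98 with TNF and 3.13 without over the higher regions, and it was larger with TNF in 757 of 757. Over the lower regions the medians were 3.12 and 2.92, and it was larger with TNF in 1175 of 2228, although their normalized counts were lower.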
